A study of Mus musculus with 18 samples.

Results

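The mRNA levels of 5 genes for homeobox cofactors, *Meis1*, *Meis2*, *Pbx2*, *Pbx3* and *Pknox1*, were followed through blood development in culture and in fibroblasts reprogrammed towards blood. The genes were chosen by name as members of the MEIS, PREP and PBX families. All 5 were found by gene symbol in both expression tables, among 20066 gene names in the table of stages and 20268 in the table of fibroblasts. MEIS and PREP proteins (*Pknox1* encodes PREP1) bind DNA together with PBX proteins, and all belong to the TALE class of homeobox proteins, whose homeodomain carries an extra loop. MEIS and PBX proteins are partners of HOX proteins. A PBX protein that is bound by a MEIS or PREP protein is held in the nucleus. *Meis1* is required for normal blood stem cells and, with HOX genes, is a known driver of leukemia.

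The 18 samples were from mouse strain 129. Of these, 10 were cells differentiated from an embryonic stem cell (ESC) line with a GFP reporter in *Brachyury*, 2 replicates for each of 5 stages. They were ESC, mesoderm (MES, Bry+/Flk1-), hemangioblast (HB, Bry+/Flk1+, the precursor of blood and endothelium), hematopoietic progenitors (HP, CD41+) and macrophages (MAC, CD11b+). The stage table holds 1 value of the authors per stage, in which the replicates are combined. It also holds a column for hemogenic endothelium (HE, Tie2+/cKit+/CD41-), the endothelium that gives rise to blood, which the authors uploaded with another dataset. None of the 18 samples is an HE sample, so the direct step from HB to HP is given as well. The other 8 samples were libraries of mouse embryonic fibroblasts (MEFs) taken at embryonic day 14.5, 1 library for each condition at day 12 and 1 at day 21. The conditions were untreated (uFIB), Scl and Lmo2 (SL), Scl, Fli1, Gata2 and Lmo2 (SFGL), and Fli1, Gata2 and Lmo2 (FGL), where Scl is another name of *Tal1*. The MEFs came from wild-type mice or from mice with a doxycycline-inducible *Tal1* transgene, and which of them went into a given library is not given in the sources used here. For MEFs with the transgene, the study describes lentiviral vectors for Fli1, Gata2 and Lmo2. For wild-type and transgenic MEFs together it describes vectors for *Tal1* as well as the other factors, in different combinations.

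Levels are in FPKM (read fragments scaled to transcript length and to the number of mapped reads), so that genes of different length can be compared within a table. The 2 tables were normalized separately, and levels were not compared between them. Neither table holds a replicate value, so the difference between any pair of columns has no error and was not tested. The fibroblast conditions were tested over both days together. A gene was counted as changed between columns when it differed at least 2-fold on FPKM + 0.001 and reached 1 FPKM in at least 1 of them, and the share of all such expressed genes that changed is given beside the counts.

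Known stage markers were checked first. Of 17 markers, 13 were highest in their own stage. *Mixl1* and *Eomes* were highest in HB rather than MES, *Kdr* in HE rather than HB, and *Kit* in HP rather than HE. Among the markers, *T*, *Kdr*, *Tek*, *Kit* and *Itga2b* encode proteins used for the sort or its reporter, so that these are no independent check. In the fibroblasts, *Tal1* was at 58.0 to 347 FPKM in the SL and SFGL libraries and at 0.0414 and 0.415 FPKM in uFIB. The library labelled FGL at day 12 held *Tal1*, which its label does not name, at 7.04 FPKM. *Fli1*, which the label names, was at 3.35 FPKM in the library labelled FGL at day 21, near the 3.02 to 3.43 FPKM of uFIB. Genes that a label does not name were also high in SL, at day 12 and day 21. There *Fli1* was at 46.7 and 34.4 FPKM and *Gata2* at 68.8 and 62.6. The source of these transcripts was not tested. *Lmo2* was at 48.4 to 150 FPKM in SL and SFGL, 36.2 and 66.5 in FGL and 0.499 and 2.28 in uFIB, and *Gata2* at 62.6 to 132, 21.9 and 35.1, and 1.80 and 2.13 FPKM. Statements on FGL therefore refer to the libraries labelled so.

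The genes lie on 3 chromosomes. In the files' build, mm10 (GRCm38), *Meis1* spans chr11:18880428-19018969 on the minus strand, *Meis2* chr2:115861264-116065058 on the minus strand and *Pbx3* chr2:34171909-34372036 on the minus strand. *Pbx2* spans chr17:34592471-34597341 and *Pknox1* chr17:31564773-31607693, both on the plus strand. All are annotated as protein coding in GENCODE. In the same annotation, antisense genes overlap *Meis1* (Gm16140 and Gm16141), *Pbx3* (C79798) and *Pknox1* (AC166172.4), and whether counting used strand is not given in the sources used here, so reads of such pairs may not be told apart. The annotated *Pbx2* starts within *Gpsm3* on the same strand, but the region of *Pbx2* in the stage table starts after the end of *Gpsm3*.

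The stretches before the starts of *Meis1* and *Pbx2* are shown because these genes moved in opposite directions in the SL and SFGL fibroblasts. Each runs from 250 to 17 bases before the RefSeq start (GRCm38.p6), on the gene's own strand, at chr11:19018986-19019219 for *Meis1* and chr17:34592009-34592242 for *Pbx2*. The RefSeq start of *Meis1* is the end of its region in the table, and that of *Pbx2* lies 212 bases before the start in the table. In GENCODE *Pbx2* starts further upstream, at chr17:34591266. Its stretch therefore lies within the gene as annotated there, outside annotated exons. Capitals mark matches, on either strand, to CANNTG (E-box, the kind of site that TAL1 complexes bind), GATAA (GATA factors), GGAAG (ETS factors), TGTGGT (RUNX factors), TGACAG (MEIS and PREP) or TGATTNAT (HOX with PBX).
Meis1: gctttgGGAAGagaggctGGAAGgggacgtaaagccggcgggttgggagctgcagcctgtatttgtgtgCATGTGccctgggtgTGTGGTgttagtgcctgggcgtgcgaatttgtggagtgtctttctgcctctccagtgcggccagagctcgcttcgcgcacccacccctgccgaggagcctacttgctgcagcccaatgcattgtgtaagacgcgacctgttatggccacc
Pbx2: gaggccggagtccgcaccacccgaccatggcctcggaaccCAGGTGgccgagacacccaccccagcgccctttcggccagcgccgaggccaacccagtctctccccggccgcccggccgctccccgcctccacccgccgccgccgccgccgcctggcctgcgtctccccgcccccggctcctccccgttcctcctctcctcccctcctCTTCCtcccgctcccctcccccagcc
The *Meis1* stretch held 1 E-box match, 2 ETS matches and 1 RUNX match, and the *Pbx2* stretch held 1 E-box and 1 ETS match. Neither held a GATA, MEIS and PREP, or HOX with PBX match in these letters. Of 32817 stretches of the same 234 bases before RefSeq starts, 64.0% held an E-box match, 61.1% an ETS match, 13.3% a RUNX match, 21.7% a GATA match, 15.0% a MEIS and PREP match and 2.69% a HOX with PBX match. *Pbx2* had 77.8% G and C bases and *Meis1* 60.3%, against a median of 52.1%. The same stretch of *Meis2* overlaps annotated exons and is not shown. *Pbx3* and *Pknox1* had no entry.

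*Meis1*, which encodes a DNA-binding partner of HOX and PBX proteins, was near 0 before the HE stage and highest in HP. Its FPKM values were 0.680 for ESC, 0.256 for MES, 0.289 for HB, then 6.43 for HE, 13.4 for HP and 3.34 for MAC. It rose 22.2-fold from HB to HE and 2.08-fold more from HE to HP, and the direct step from HB to HP was 46.3-fold. These folds rest on 0.289 FPKM in HB, and with 1 FPKM added in place of 0.001 the steps from HB to HE and from HB to HP were 2.53 and 3.48 on the log2 scale, against 4.47 and 5.53. Among expressed genes, 2.16% changed by more than *Meis1* between HB and HE, and 2.69% between HB and HP. It then fell 4.01-fold from HP to MAC, a step at which 29.5% of expressed genes changed by more. On the log2 scale this step was -2.0 as deposited and -2.74 when the columns were brought to the same upper quartile. As a rank, which does not depend on the scale of a column, *Meis1* lay above 43.9% of all genes in HB, 70.6% in HE, 84.6% in HP and 59.6% in MAC. The 2.08-fold rise from HE to HP lies just past the limit, and with 1 FPKM added it was 0.95 on the log2 scale, under 2-fold. The fibroblast markers *Col1a1*, *Col3a1* and *Thy1* summed to 4.55 FPKM in HB, 35.9 in HE, 19.2 in HP and 0.673 in MAC, and their part in these changes was not tested.

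*Meis2*, the close relative of *Meis1* with known roles in limb, heart and neural crest development, had its highest level 1 step earlier. It was at 0.160 FPKM in the ESC, 1.46 in MES, 1.83 in HB, 2.73 in HE, 0.611 in HP and 0.0343 in MAC. The gene rose 9.14-fold from ESC to MES and fell 4.47-fold from HE to HP, and from HB to HP directly it fell 3.0-fold. Levels in HP and MAC were both under 1 FPKM, so the step between them was not counted. *Meis2* is listed with 2 transcription start sites, of which the site with the ID TSS11762 carried nearly all of the signal, at 2.57 FPKM in HE against 0.164 FPKM for TSS11761. All values of *Meis2* in the stages were low, and none of its changes there is counted when 5 FPKM is required. The ratio of *Meis1* to *Meis2* was 4.25 in ESC, where both were under 1 FPKM, 0.175 in MES, 0.158 in HB, 2.36 in HE, 21.9 in HP and 97.4 in MAC. *Meis2* was thus the higher of the pair in MES and HB, where *Meis1* was under 1 FPKM, and the lower in every later column.

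*Pknox1*, which encodes PREP1, a broadly expressed PBX partner, was the flattest of the 5 genes. It was at 4.91 FPKM in the ESC, 3.83 in MES, 3.78 in HB, 4.52 in HE, 4.61 in HP and 5.15 in MAC, a 1.36-fold range. It passed the 2-fold limit at none of the 6 steps. Its place among all genes stayed between 64.1% and 69.1%. *Meis1* was at 0.0766 times the level of *Pknox1* in HB, 1.42 times in HE, 2.91 times in HP and 0.649 times in MAC.

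*Pbx2*, which encodes a widely expressed PBX protein, had the highest level of the 5 genes in every stage. Its level was 12.7 FPKM in the ESC, 16.0 in MES, 25.0 in HB, 27.6 in HE, 28.6 in HP and 34.9 in MAC. No single step reached 2-fold, and the whole range was 2.76-fold. From HP to MAC its difference was 0.29 on the log2 scale as deposited and -0.44 at the same upper quartile, and that of *Pknox1* was 0.16 and -0.58. The median expressed gene moved by 0.53 from HP to MAC as deposited and by -0.25 on that scale. As ranks, *Pbx2* lay above 83.8% of all genes in ESC, 93.8% in HP and 89.9% in MAC.

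*Pbx3*, which encodes a PBX protein known as a partner of MEIS1 and HOXA9 in leukemia, rose up to HB and was lower at each later stage. It was at 5.63 FPKM in the ESC, 5.85 in MES, 9.21 in HB, 5.78 in HE, 4.45 in HP and 0.956 in MAC. The level was highest in HB, and the step from HB to HP was a 2.07-fold decrease. It fell 4.66-fold from HP to MAC, which was -2.22 on the log2 scale as deposited and -2.95 at the same upper quartile. The step from HB to HP was -1.05 on the log2 scale as deposited and -0.97 at the same upper quartile, where it no longer reached 2-fold. *Pbx3* was at 0.369 times the level of *Pbx2* in HB, 0.156 times in HP and 0.0273 times in MAC.

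**Figure D1:**
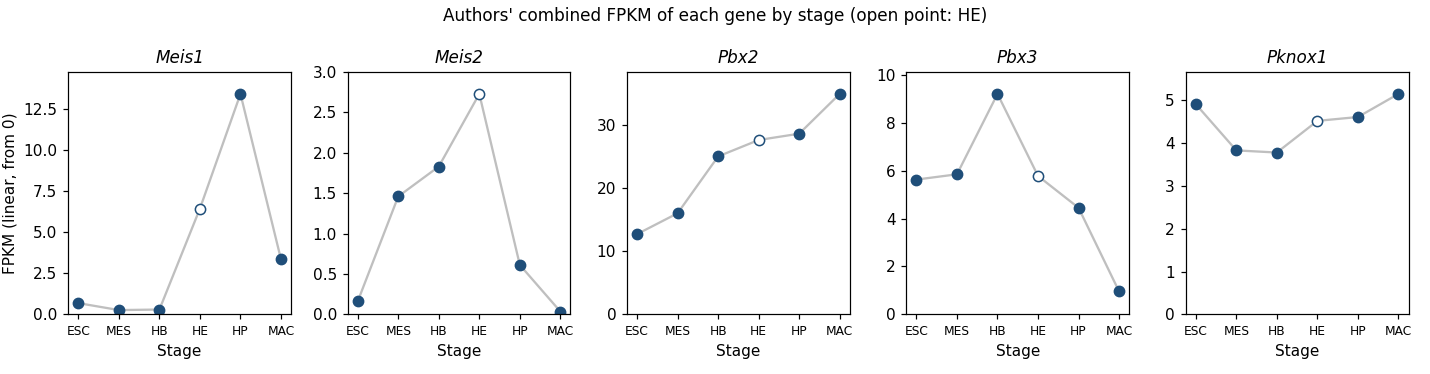
FPKM (linear axes from 0) of the 5 genes in the 6 stage columns, 1 combined value of the authors per point, with the HE column as an open point and no error available. *Meis1* is under 1 FPKM until HB and peaks at 13.4 FPKM in HP, *Meis2* peaks at 2.73 in HE, *Pbx3* at 9.21 in HB, *Pbx2* is highest in MAC at 34.9, and *Pknox1* stays between 3.78 and 5.15.

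Counted together, few of the genes changed at a time. Of the 5 genes, 4 reached 1 FPKM in the steps from ESC to MES, from MES to HB and from HP to MAC. All 5 did in the other steps between stages. From ESC to MES 1 of the 5 genes changed (*Meis2*), while 23.3% of expressed genes did. From MES to HB none of the 5 changed, with 10.4% of expressed genes changed. *Pbx2* and *Pbx3* then stood 1.56-fold and 1.57-fold higher. From HB to HE 1 gene changed (*Meis1*), beside 20.4% of expressed genes, and from HE to HP 2 genes changed (*Meis1* up and *Meis2* down), beside 21.1%. From HP to MAC 2 genes changed (*Meis1* and *Pbx3*, both down), beside 54.9%. From HB to HP 3 genes changed (*Meis1* up, *Meis2* and *Pbx3* down), beside 25.0%. With so few genes, none of these counts can be set apart from the share of all genes. Of all genes called from HP to MAC, 69.3% were higher in MAC as deposited and 42.6% at the same upper quartile, and from MES to HB the shares higher in HB were 39.2% and 29.1%.

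The shares of the genes among the MEIS and PREP transcripts were computed with the other genes of both families, *Meis3* and *Pknox2* (PREP2). Shares within a column do not depend on its scaling. The leading gene among these transcripts changed 3 times. *Pknox1* made up 65.1% of them in ESC and 21.4% to 34.8% in the later columns. *Meis3* held 46.9% in MES and 46.1% in HB. *Meis1* went from 2.37% in HB to 36.8% in HE and 66.4% in HP, and in MAC it held 13.9% while *Meis3*, at 15.5 FPKM, held 64.5%. *Pbx4*, a further PBX gene, was at 0.50 FPKM or lower in every stage.

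**Figure D2:**
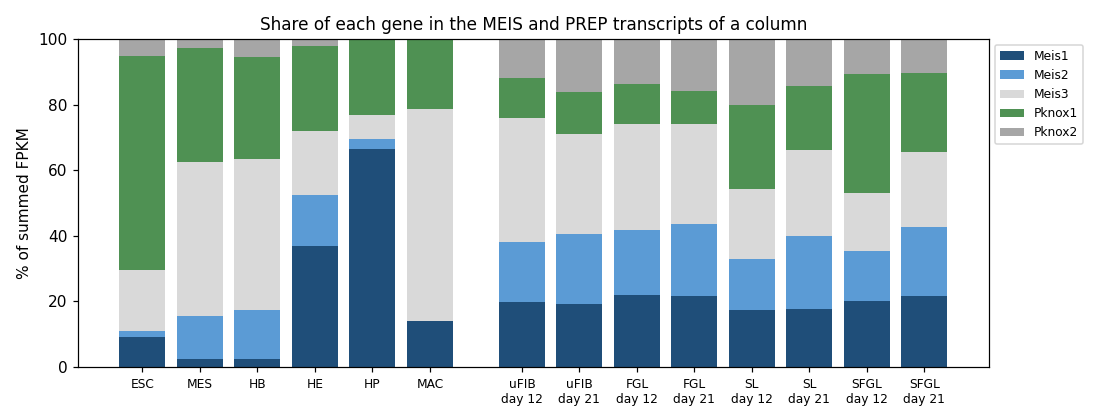
Share, in percent of summed FPKM, of each gene among the MEIS and PREP genes, for the 6 stage columns and the 8 fibroblast libraries. *Meis1* grows from 2.37% in HB to 66.4% in HP, and *Pknox1* is at 9.96% to 12.8% in the uFIB and FGL libraries and at 19.4% to 36.3% in the SL and SFGL libraries.

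In the untreated fibroblasts all 5 genes were expressed. *Meis1* was at 9.88 FPKM at day 12 and 8.98 at day 21, *Meis2* at 9.28 and 9.90, *Pbx2* at 15.7 and 15.3, *Pbx3* at 8.33 and 6.56, and *Pknox1* at 6.16 and 5.95. *Meis2* stood nearly level with *Meis1*, with a ratio of *Meis1* to *Meis2* of 1.07 at day 12 and 0.907 at day 21. Between the uFIB libraries of both days none of the 5 genes changed, and the widest difference was 1.27-fold, for *Pbx3*. Of all expressed genes, 6.23% differed at least 2-fold between these libraries, in which day and library cannot be told apart. This comparison was added after the data had been seen, to give a measure of how far libraries of the same condition differ.

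*Meis1* and *Meis2* were lower with SL and with SFGL at both days. At day 12 *Meis1* was at 4.31 FPKM in SL and 3.75 in SFGL, which is 2.29-fold and 2.64-fold below uFIB. At day 21 it was at 4.81 in SL and 4.12 in SFGL, which is 1.86-fold and 2.18-fold below. *Meis2* was at 3.90 FPKM in SL and 2.87 in SFGL at day 12, which is 2.38-fold and 3.23-fold below uFIB, and at 6.05 and 4.04 at day 21, which is 1.64-fold and 2.45-fold below. Each of these 4 libraries was lower than each uFIB and FGL library for both genes. The 2-fold limit was passed by both genes in every one of these comparisons other than SL at day 21. With 1 FPKM added, *Meis1* in SFGL at day 21 was at -0.96 on the log2 scale and no longer passed.

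*Pbx2* moved the opposite way. At day 12 it was at 35.4 FPKM in SL and 34.0 in SFGL, which is 2.25-fold and 2.16-fold above uFIB. At day 21 it was at 29.8 in SL and 23.9 in SFGL, 1.95-fold and 1.57-fold above and so under the limit. All 4 values were above the 15.3 to 18.5 FPKM of the uFIB and FGL libraries.

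*Pbx3* and *Pknox1* stayed under 2-fold in every fibroblast comparison. *Pbx3* was at 5.86 FPKM in SL and 5.21 in SFGL at day 12, 1.42-fold and 1.60-fold below uFIB, and at 6.49 and 6.53 at day 21, level with the 6.56 of uFIB. *Pknox1* was at 6.38 and 6.81 FPKM at day 12 and at 5.27 and 4.61 at day 21. Its SL and SFGL values lay on both sides of the uFIB values.

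In the libraries labelled FGL none of the 5 genes reached 2-fold. *Meis1* was at 10.5 FPKM at day 12 and 12.0 at day 21, *Meis2* at 9.36 and 12.3, *Pbx2* at 17.3 and 18.5, *Pbx3* at 7.69 and 10.9, and *Pknox1* at 5.83 and 5.56. The widest difference from uFIB of the same day was that of *Pbx3* at day 21, 1.66-fold higher. Among expressed genes, 4.41% differed by more in that comparison.

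**Figure D3:**
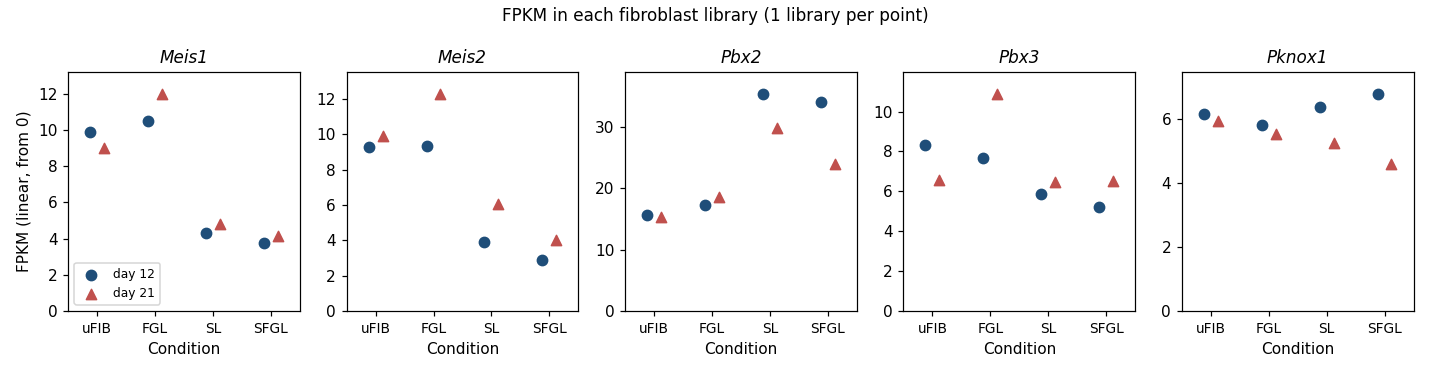
FPKM (linear axes from 0) of the 5 genes in the 8 fibroblast libraries, 1 library per point, circles for day 12 and triangles for day 21. The SL and SFGL points of *Meis1* (3.75 to 4.81) and *Meis2* (2.87 to 6.05) lie below all uFIB and FGL points, those of *Pbx2* (23.9 to 35.4) lie above them, and those of *Pknox1* overlap them.

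These counts stand beside wide changes in the fibroblasts as a whole. At day 12, 3 of the 5 genes changed with SL (*Pbx2* up, *Meis1* and *Meis2* down), beside 34.5% of expressed genes, and 3 with SFGL, beside 38.4%. At day 21 none changed with SL, beside 30.3%, and 2 with SFGL (*Meis1* and *Meis2* down), beside 36.7%. With FGL none changed at either day, beside 5.11% at day 12 and 2.13% at day 21. Of the genes called with FGL at day 21, 53.8% were higher as deposited and 42.0% at the same upper quartile. The values of 4 of the 5 genes (*Pbx2* higher and *Meis1*, *Meis2* and *Pbx3* lower) did not overlap between the 4 SL and SFGL libraries and the 4 uFIB and FGL libraries, and the same held for 60.1% of all expressed genes. For *Pbx3* the ranges almost met, at 5.21 to 6.53 and 6.56 to 10.9 FPKM. The grouping by *Tal1* in the label was also added after the data had been seen, and the count was 4 as well without the library labelled FGL at day 12 and without both FGL libraries. The uFIB libraries are shared by the comparisons of a day, so that these are not independent of each other.

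The conditions were then tested over both days, with day as a block, by limma on log2(FPKM + 1) across 12803 genes in the 8 libraries. *Meis1* was lower, with a difference on the log2 scale of -0.91 ± 0.12 with SL (SE, limma, adjusted p = 0.00282) and -1.08 ± 0.12 with SFGL (adjusted p = 0.00128). *Meis2* was lower too, at -0.85 ± 0.14 with SL (limma, adjusted p = 0.00501) and -1.26 ± 0.14 with SFGL (adjusted p = 0.00117). *Pbx2* was higher, at 1.02 ± 0.16 with SL (limma, adjusted p = 0.00451) and 0.84 ± 0.16 with SFGL (adjusted p = 0.00681). Each of these differences had the same sign at both days. *Pbx3* (-0.23 ± 0.19 and -0.30 ± 0.19) and *Pknox1* (-0.05 ± 0.14 and -0.09 ± 0.14) did not pass at an adjusted p of 0.05 with SL or SFGL, by limma at 0.358, 0.234, 0.776 and 0.607. So 3 of the 5 genes passed with SL, beside 51.6% of all genes tested, and 3 with SFGL, beside 58.0%. With FGL none of the 5 passed by limma at an adjusted p of 0.05, beside 0.0156% of all genes. At an unadjusted p under 0.05 by limma none of the 5 passed either, beside 480 of the 12803 genes. The test was added after the data had been seen. Its error is the spread left after the condition and day terms, with 3 residual degrees of freedom, moderated by limma across genes. No condition has a second library of the same day, so this spread mixes differences between libraries with effects that differ by day. Whether the libraries of both days came from separate reprogramming experiments is not given in the sources used here. Without the uFIB library of day 12 *Pbx2* with SFGL was at 0.75 and no longer passed (limma, adjusted p = 0.0509), and over the other 9 alternatives it passed. Without the uFIB library of day 21 *Pbx3* with SFGL was at -0.59 and passed (limma, adjusted p = 0.0466), where the highest of its alternatives had 0.996.

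**Figure D4:**
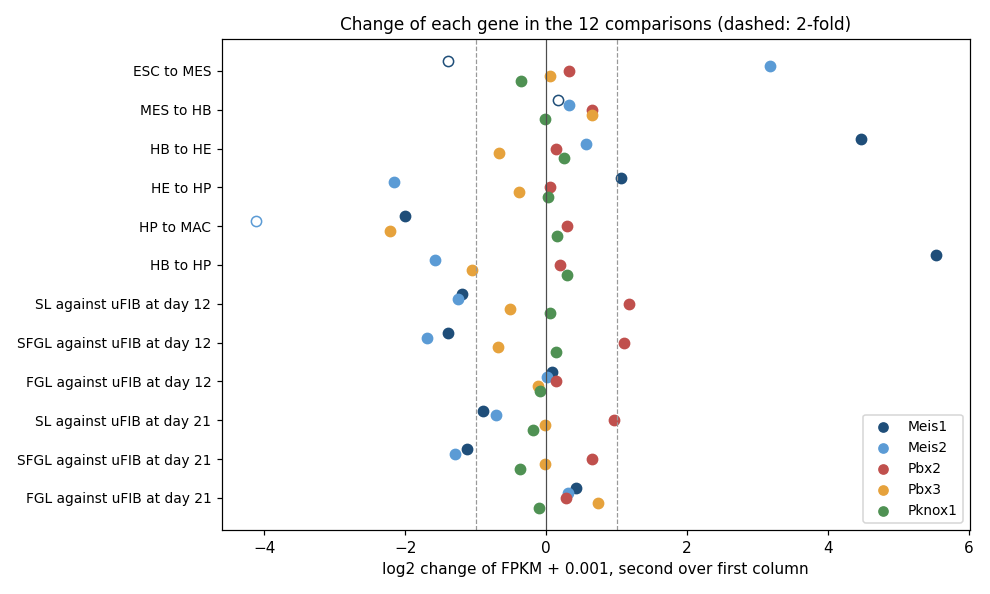
Log2 change of FPKM + 0.001 of the 5 genes in the 12 comparisons, second column over first, with dashed lines at 2-fold and open points where both columns were under 1 FPKM. *Meis1* stands far to the right from HB to HE (4.47) and from HB to HP (5.53), and in SL and SFGL fibroblasts *Meis1* and *Meis2* lie left of 0 and *Pbx2* right of it.

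Among the relatives, *Meis3* and *Pknox2* were also lower with SL and SFGL. *Meis3* was at 18.8 and 14.2 FPKM in uFIB of day 12 and day 21, and at 5.32, 3.33, 7.08 and 4.34 FPKM in SL and SFGL of day 12 and SL and SFGL of day 21. *Pknox2* was at 1.98 to 4.99 FPKM in these 4 libraries and at 5.93 to 8.85 in the others. The levels of *Meis3* and *Pknox2* did not overlap between these groups, and neither did those of 60.1% of all expressed genes. At day 12 *Meis3* fell in SL, beside 34.5% of expressed genes changed, and both genes fell in SFGL, beside 38.4%. At day 21 *Meis3* fell in SL, beside 30.3%. *Meis3* and *Pknox2* fell in SFGL of that day, beside 36.7%. *Pknox2* in SL stayed under 2-fold at both days. *Pbx4* rose in SL and SFGL at day 21, to 1.34 and 1.17 FPKM. *Pbx3* was at 0.429 to 0.588 times the level of *Pbx2* in the uFIB and FGL libraries and at 0.153 to 0.273 times in the SL and SFGL libraries. Neither *Pbx2* nor *Pbx3* overlapped between these libraries on its own, like 60.1% of all expressed genes. *Pknox1*, whose own level overlapped between these libraries, made up a larger share of the MEIS and PREP transcripts in each SL and SFGL library, at 19.4% to 36.3% against 9.96% to 12.8%.

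Fibroblast markers were lower with SL and SFGL, as *Meis1* and *Meis2* were, while *Pbx2* was higher and *Pknox1* overlapped. *Col1a1* and *Col3a1*, which encode fibrillar collagen chains, and *Thy1*, which encodes a surface protein of fibroblasts, were lower in each SL and SFGL library than in each uFIB and FGL library, in 3 of 3 markers. Of all expressed genes, 60.1% did not overlap between these groups of libraries, in either direction. Their summed level was 3829 to 4534 FPKM in uFIB, 3664 and 3822 in FGL, 1344 and 1614 in SFGL and SL at day 12, and 691 and 798 in SFGL and SL at day 21. None was at 0 in any library. Of the progenitor markers *Itga2b*, *Gata1* and *Myb*, the summed level was 1.18 to 1.32 FPKM in uFIB, 193 to 320 in SL and SFGL, 28.0 in the library labelled FGL at day 12 and 1.04 in that labelled FGL at day 21. *Csf1r*, *Emr1* and *Cd68*, markers of macrophages, summed to 16.9 to 38.8 FPKM in SL and SFGL and 3.19 to 3.65 in uFIB. In the libraries labelled FGL the sum was 5.14 at day 12 and 3.69 at day 21. Most of the sum in SL and SFGL was *Cd68*, at 14.3 to 30.1 FPKM, while *Emr1* was at 1.89 to 6.69 and *Csf1r* at 0.734 to 1.92. The part of such changes in cell types in the levels of *Meis1*, *Meis2* and *Pbx2* was not tested, and in bulk RNA fewer cells of a type and less RNA per cell cannot be told apart.

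**Figure D5:**
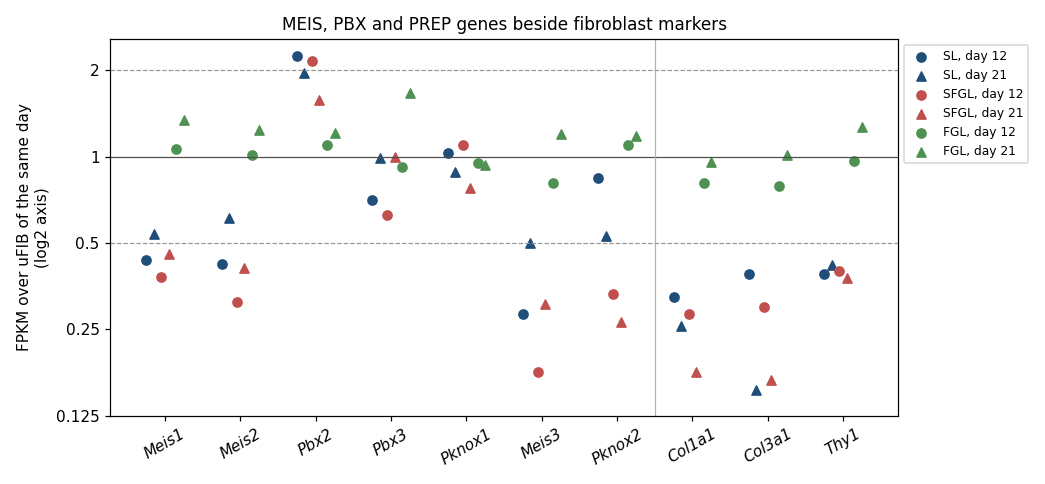
FPKM over that of uFIB of the same day, on a log2 axis, for the 5 genes, 2 relatives and 3 fibroblast markers (right of the grey line), 1 library per point. With SL and SFGL the markers lie at 0.153 to 0.420 times uFIB, *Meis1* at 0.379 to 0.536, *Meis2* at 0.310 to 0.611 and *Pbx2* at 1.57 to 2.25.

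The HOX genes that partner with these cofactors were nearly silent in the stages. Of 8 HOX genes listed (*Hoxa5*, *Hoxa7*, *Hoxa9*, *Hoxa10*, *Hoxb3*, *Hoxb4*, *Hoxb6* and *Hoxb8*), 3 reached 1 FPKM, all in HE. These were *Hoxb4*, a gene used to expand blood stem cells, at 3.67 FPKM, *Hoxb6* at 2.65 and *Hoxb3* at 1.25. They rose 7.77-fold, 3.98-fold and 2.99-fold from HB to HE, where 20.4% of expressed genes changed, and were at 0.391, 0.114 and 0.104 FPKM in HP, where *Meis1* was highest. In the direct step from HB to HP none of the 8 reached 1 FPKM in either column, with *Hoxb4* at 0.472 FPKM in HB. *Hoxa9*, the usual partner of *Meis1* in leukemia, was at 0.0859 FPKM or lower in every stage. In the fibroblasts all 8 were expressed, and 6 of 8 fell with SL and with SFGL at day 12, beside 34.5% and 38.4% of all expressed genes changed in either direction. Their median log2 change with SL at day 12 was -1.27, against -0.03 over all expressed genes. At day 21, 1 of 8 fell with SL, beside 30.3%, and 2 with SFGL, beside 36.7%. *Hoxa7* had the largest change with SL at day 12, from 7.16 to 2.16 FPKM. With FGL none changed at day 12, and *Hoxa5* and *Hoxa9* rose at day 21, beside 2.13% of expressed genes changed.

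Among the other TALE genes, *Tgif1*, which encodes a repressor of TGF-beta and retinoid signals, fell from 17.7 FPKM in HB to 7.93 in HE and 3.88 in HP and rose to 24.1 in MAC. *Mkx*, known from tendon, fell from 1.88 FPKM in HB to 0.319 in HE, the largest change there among the genes of the list that reached 1 FPKM. From HP to MAC the largest change among such genes was that of *Tgif2*, from 5.94 to 0.254 FPKM. Of the 9 genes of this list, 3 reached 1 FPKM from HB to HE, with 2 lower beside 20.4% of all expressed genes changed. The same 2 of 3 (*Tgif1* and *Mkx*) were lower in the direct step from HB to HP, beside 25.0%. The *Irx* genes stayed under 1 FPKM in the stages. In fibroblasts 7 of 9 were expressed, and 5 of these 7 fell with SL at day 12, beside 34.5% of all expressed genes changed, *Mkx* most, from 4.04 to 0.827 FPKM. The median log2 change of these 7 was -2.15. *Pbxip1*, whose product binds PBX proteins and hinders their DNA binding, rose from 4.04 FPKM in HP to 18.9 in MAC, where 54.9% of expressed genes changed. In SL and SFGL it was at 25.1 to 33.5 FPKM, against 40.0 to 44.1 in the other fibroblast libraries. Each of these SL and SFGL values was under 2-fold from uFIB of the same day. The levels of 60.1% of all expressed genes did not overlap between these groups.

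Of 8 genes known as targets of MEIS1 or of its complexes, 3 rose and 1 fell from HB to HE, while *Meis1* rose, beside 20.4% of expressed genes changed. The median log2 change of the 5 that reached 1 FPKM was 1.06, against -0.01 over all expressed genes. *Epas1*, which encodes a hypoxia factor, had the largest change of these 5, from 0.266 to 4.24 FPKM. From HE to HP 4 rose and 1 fell, beside 21.1% changed, with a median of 1.12 over the 7 that reached 1 FPKM against -0.10. In the direct step from HB to HP 4 rose (*Myb*, *Pf4*, *Ccnd3* and *Ccl3*) and none fell, beside 25.0% changed, with a median of 2.72 over 6 genes against -0.15. Between HE and HP, *Ccl3*, a chemokine gene, rose most, from 0.0303 to 10.3 FPKM. *Pf4*, a platelet gene, was at 0.148 FPKM in HE and 23 in HP, and *Myb*, a progenitor factor, at 4.20 and 19.3 FPKM. From HP to MAC, where *Meis1* fell, 3 rose and 3 fell, beside 54.9% changed, *Myb* most, to 0.789 FPKM, with a median of -0.04 over 7 genes against 0.53. *Flt3*, the receptor gene often named as a target, was at 0.0662 FPKM or lower in every stage. With SL at day 12, where *Meis1* was lower, 4 of the 8 rose (*Myb*, *Pf4*, *Ccnd3* and *Ccl3*) and *Trib2* fell, beside 34.5% changed, with a median of 1.63 over 7 genes against -0.03. *Myb* had the largest change, from 0.0848 to 126 FPKM. With SL at day 21, 4 rose and none fell, beside 30.3% changed.

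The genes whose patterns were most like those of the 5 genes were found from Pearson's r on log2(FPKM + 1), summed over the 6 stage columns and the 8 fibroblast libraries, among 11079 other genes. For *Meis1* these were *Pard3b*, which encodes a polarity protein (r = 0.964 over the stages and 0.970 over the fibroblasts), *Prkg1*, which encodes a cGMP-dependent kinase (0.946 and 0.951), and *Dvl3*, which encodes a Wnt signal transducer (0.915 and 0.973). For *Meis2* they were *Zfp449* (0.986 and 0.961), *Mpdz* (0.968 and 0.972) and *Btbd7* (0.960 and 0.971). For *Pbx2* they were *Tmx4* (0.990 and 0.956), *Phf7* (0.948 and 0.982) and *Rspry1* (0.974 and 0.940). For *Pbx3* they were *Ttc26* (0.925 and 0.972), *Tro* (0.941 and 0.918) and *Sec61a2* (0.981 and 0.873). For *Pknox1*, with its narrow range, they were *Slc50a1* (0.872 and 0.923), *Mib2* (0.865 and 0.926) and *Kdm4a* (0.880 and 0.903). These values describe the tables only, since the points share libraries and the fibroblast points fall mostly into SL and SFGL on one side and uFIB and FGL on the other.

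None of the 5 genes was among the 3 most like another of them. The most alike pair was *Meis2* and *Pbx3*, with r = 0.680 over the stages and 0.841 over the fibroblasts, where *Meis2* had rank 423 of the 11079 genes for *Pbx3* and *Pbx3* rank 644 for *Meis2*. *Meis1* and *Meis2* had r = 0.964 over the fibroblast libraries and -0.059 over the stages. *Pbx2* and *Pbx3* had r = -0.496 over the stages and -0.671 over the fibroblasts.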

How the data were processed

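RNA was rRNA-depleted and sequenced on SOLiD, 50-base single reads per the study's methods. The authors aligned the stage reads to mm10 with SHRiMP, kept unique reads, removed duplicates and deposited FPKM per transcription start site from Cufflinks, with replicates combined. The submitters' notes name Bowtie and HOMER for ESC, and TopHat and Cufflinks for the MEFs, whose FPKM were deposited per gene and library. Unique reads lower genes with near-identical copies. Whether the tools named for ESC shift its values against the other stages was not tested. FPKM hold no absolute depth. Steps in the low values put the fibroblast libraries at 0.587 to 1.56 times the depth of uFIB at day 12.

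Start sites were summed per gene name (Python 3.11.15, pandas 2.3.3, NumPy 2.4.6). Changes were taken on FPKM + 0.001, with limits of 2-fold and 1 FPKM, and the calling was tested on simulated data. No pair of columns was tested because no replicate value exists. The fibroblast conditions were tested with limma 3.58.1 (R 4.3.3) on log2(FPKM + 1) of genes at 1 FPKM or more in any library, with condition and day as terms and Benjamini-Hochberg adjustment. Sequences came from RefSeq and overlaps from GENCODE. Named genes were the 5 members, fixed lists of TALE, HOX and target genes, with those of largest change, and the 3 most alike genes per member. Members and lists were chosen with earlier results of these data known. Some genes of the fixed lists are not reported here. Alternatives were another pseudocount, other limits, upper-quartile scaling, the highest start site, averaging the uFIB libraries for the reference and, in the limma fit, leaving out each library.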

Additional observations from a re-analysis of the deposited data

Results flagged for a closer look

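The difference between a reprogrammed library and uFIB pointed in opposite directions at the 2 days for 2 of the genes, with 1 library per condition and day, and these differences were not tested. For *Pbx3* with FGL the log2 change was -0.12 at day 12 and 0.73 at day 21, a difference of 0.85. For *Pknox1* with SFGL it was 0.14 and -0.37, a difference of -0.51, and with SL 0.05 and -0.18, a difference of -0.23. The uFIB libraries of both days differed by -0.35 for *Pbx3* and -0.05 for *Pknox1* on the same scale.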

How the results depend on the processing

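Of 75 recomputed counts of changed genes, 64 stayed within 1.5 times the value reported and 11 moved, and no called gene turned its direction. Without a minimum FPKM the count from ESC to MES was 2 in place of 1, with *Meis1* added. With at least 5 FPKM it was 0 from ESC to MES, 1 from HE to HP and 1 from HP to MAC. With a pseudocount of 1 FPKM it was 1 from HE to HP, 1 from HB to HP and 1 with SFGL at day 21. At 1.5-fold it was 2 from MES to HB, 2 from HB to HE, 3 with SL at day 21 and 1 with FGL at day 21. Of 360 recomputed values of single genes, 340 kept their call and 20 did not. The highest start site in place of the sum changed no count, nor did the mean of the uFIB libraries as reference. Upper-quartile scaling moved no count by more than 1.5 times. For the stages the replicate numbers could not be used. No paired analysis was possible because the stage table holds 1 combined value per stage, and no replicate could be left out there. In the fibroblasts, with day as a block, the number of the 5 genes past the threshold was 3 with SL in all 10 alternatives, 2 to 4 with SFGL and 0 with FGL. Of the log2 differences in this test, 6 that did not pass turned their sign when a library was left out. They ranged from -0.52 to 0.07 for *Pbx3* and from -0.16 to 0.05 for *Pknox1* with SL, from -0.27 to 0.09 for *Pknox1* with SFGL, and from -0.02 to 0.32 for *Meis2*, from -0.02 to 0.57 for *Pbx3* and from -0.18 to 0.03 for *Pknox1* with FGL. Low values, such as those of *Meis2* in the stages, rest on few reads of unknown number.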
